A study of Mus musculus with 4 samples.

Results

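The nuclear respiratory chain genes are the genes of nuclear DNA that encode subunits of mitochondrial complexes I to V, and they were followed here through the cell types of mouse pancreatic islets. Members were taken by symbol alone: all Nduf genes of the a, b, c, s and v series, the Sdha to Sdhd genes, all Uqcr genes, Cyc1, the Cox4 to Cox8 genes whose number is followed by a, b or c, and all Atp5 genes, without Ndufa4l2 and pseudogenes. The rule found 82 of 38457 mouse features, of which 36 were placed by symbol with complex I, 4 with complex II, 9 with complex III, 16 with complex IV and 17 with complex V. Counts by complex thus hold Ndufa4, now known as a subunit of complex IV, under complex I. They hold Cox7a2l, a factor that joins complexes III and IV, under complex IV. The rule also took Atp5s and Atp5sl, whose products are not subunits of the enzyme, and it missed the subunit genes Cox4i1, Cox4i2 and Ndufab1, which were followed in a separate list.

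Single islet cells from WT mice and from mice described as Sin3A mutant were captured by inDrop, a droplet method that counts tags from the 3′ ends of messenger RNAs in single cells. Sin3A is a scaffold of histone deacetylase complexes, which repress transcription. There are 2 libraries per genotype, stated to be biological replicates. A number in the titles is shared by 1 WT and 1 mutant library, and the lower and the higher number are called A and B here; no source used here says what the numbers stand for, and they were not taken to pair animals. Nor do the sources state the age, sex or strain of the mice, the part of Sin3a that was altered, the cells in which it was altered, or whether animals were pooled. Names such as mutant A are therefore labels, and values in runs of 4 give number A before number B and, within a number, WT before mutant.

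The respiratory chain sits in the inner membrane of mitochondria. Complex I (NADH dehydrogenase) and complex II (succinate dehydrogenase, also an enzyme of the citric acid cycle) pass electrons to complex III (cytochrome bc1) and from there to complex IV (cytochrome c oxidase), and complexes I, III and IV pump protons. Complex V, the ATP synthase, uses the proton gradient to make ATP. Complex II is encoded by nuclear genes alone, whereas the other complexes also hold core subunits encoded by mitochondrial DNA. In beta cells the ATP made from glucose closes potassium channels and so triggers the release of insulin. Several subunits of complex IV exist as a common form and as forms of heart, muscle or testis.

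Of 6948 barcodes 6526 cells were kept, with library totals of 9282495 to 12835199 counts and median counts per cell of 4448.5 to 9997. Between 10 and 39 barcodes of kept cells were shared by a pair of libraries. Cells were gated by the share of their counts in hormone genes, at least 2% for insulin (Ins1 plus Ins2), glucagon or somatostatin, with a single gate passed. The insulin gate held 607, 681, 796 and 785 cells, the glucagon gate 123, 125, 502 and 367, and the somatostatin gate 45, 28, 36 and 88. The median insulin share of insulin-gated cells was 14.8, 28.9, 7.93 and 3.62%. Within 1.2 times of the 2% insulin gate lay 8, 5, 2 and 160 cells, so the gate cut closest to the cells of mutant B. Its 227 ungated cells had a median insulin share of 1.03%. Endothelial cells (58, 39, 64 and 129) and mesenchymal cells (106, 47, 161 and 461) were taken by markers among cells below 0.5 times every gate. A list of 10 endothelial markers summed to 14776 to 16966 CPM (counts scaled to a library total of 1000000) in endothelial cells and to at most 586 CPM in mesenchymal cells, and a list of 10 mesenchymal markers to 16562 to 33492 against at most 675 CPM. The 7 beta cell markers beside insulin, among them Iapp, reached 28031 to 42190 CPM in the insulin gate but also 14176 to 21215 CPM in the somatostatin gate, where 4 delta cell markers reached 4697 to 11974 CPM. Sin3a itself was counted at 27.5, 54.1, 43.5 and 21.3 CPM over all kept cells. Mutant A thus exceeded WT A, whereas mutant B lay below WT B, and a 3′ tag outside an altered part does not check the label.

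All 82 genes together made up about 1% of the messenger RNA tags in each cell type. Their summed share of counts was 1.30, 0.883, 1.02 and 1.39% in the insulin gate, with a mean of 1.15 ± 0.235% (SD, n = 4 libraries). In the glucagon gate it was 1.35, 1.21, 1.00 and 0.994% (mean 1.14 ± 0.173%), and in the somatostatin gate 1.31, 1.00, 1.05 and 1.18% (mean 1.14 ± 0.138%). Libraries within a hormone gate thus lay further apart than the means of the 3 gates. Mesenchymal cells had a mean of 1.18 ± 0.137% and endothelial cells 0.972 ± 0.0985%, the lowest of the 5 classes, though the range of endothelial libraries overlapped those of the other classes.

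**Figure D1:**
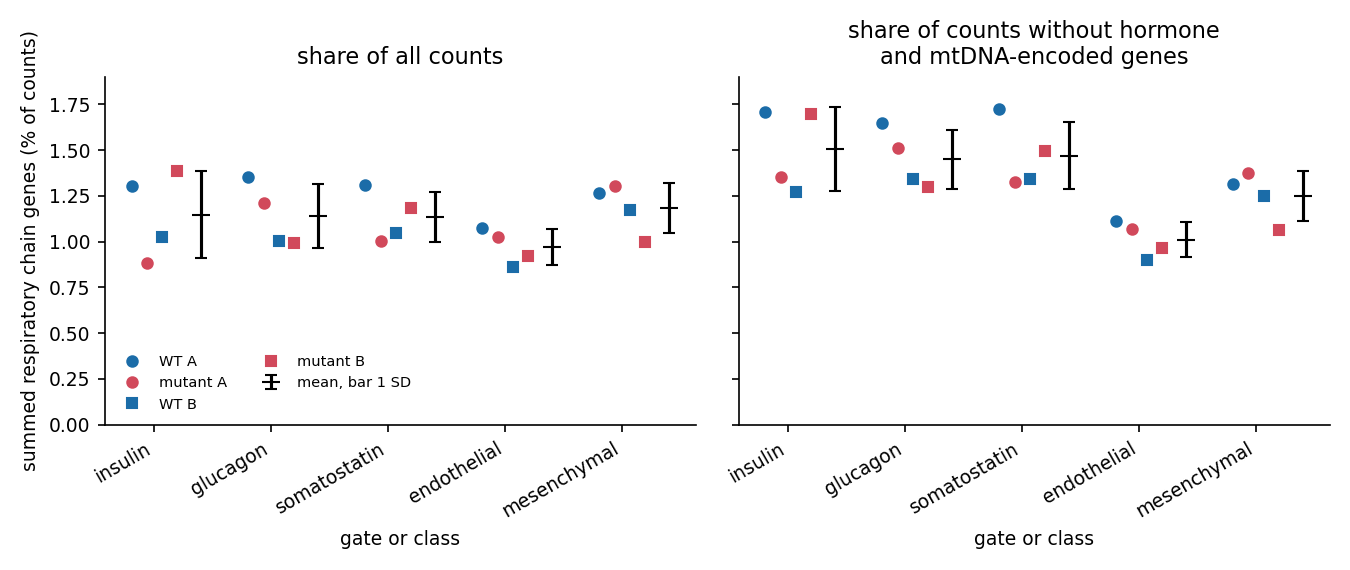
Summed share of the 82 genes in each gate or class, by library (circles, number A; squares, number B; blue, WT; red, mutant), with the mean and 1 SD over 4 libraries in black. The left panel divides by all counts and the right panel by counts without hormone and mitochondrially encoded genes, and only on the right do the hormone gates have higher means than both other classes.

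Hormone messages take up much of the counts in endocrine cells. In the insulin gate the hormone genes held 18.2, 31.3, 12.8 and 8.58% of counts and the mitochondrially encoded messenger RNAs 5.15, 3.03, 6.46 and 9.73%. Mutant A was thus highest for hormone genes and lowest for respiratory chain genes, and mutant B was the reverse, while WT A was above WT B in both. With hormone and mitochondrially encoded genes left out of the total, the insulin gate held 1.71, 1.35, 1.27 and 1.70%, so that WT B became the lowest and WT A and mutant B the highest. On this total the means became 1.51, 1.45 and 1.47% in the insulin, glucagon and somatostatin gates, 1.25% in mesenchymal and 1.01% in endothelial cells, so that the order of mesenchymal and endocrine cells depends on the denominator. Endothelial libraries, at 1.11, 1.07, 0.900 and 0.967%, then lay below every library of the hormone gates. Their range still overlapped that of mesenchymal cells (1.06 to 1.37%). After thinning each cell to 2000 counts, hormone counts included, the median insulin-gated cell held 25.5, 17, 20 and 25 counts of these genes. Mutant A was lowest here as in the share of all counts. Thinning evens the depth per cell but leaves hormone counts in the total, and their part in this order was not tested.

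By complex, the share in the insulin gate averaged 0.285 ± 0.0502% for complex I, 0.0422 ± 0.00609% for complex II, 0.109 ± 0.0200% for complex III, 0.372 ± 0.121% for complex IV and 0.340 ± 0.0571% for complex V (SD, n = 4). Within complex I, mean levels ran from Ndufs8, an iron-sulfur subunit at 13.7, 13.5, 9.34 and 8.04 CPM, to Ndufa2, an accessory subunit at 274, 245, 208 and 200 CPM. In complex II, Sdhb was lowest at 42.8, 29.8, 18.7 and 22.1 CPM and Sdha highest at 127, 110, 203 and 158 CPM. Cyc1, cytochrome c1, was the lowest gene of complex III at 60.6, 46.3, 29.8 and 25.4 CPM, and Uqcrh, the hinge protein, the highest at 200, 97.7, 227 and 365 CPM. Atp5a1, the alpha subunit of the catalytic head of the ATP synthase, was the highest of complex V at 633, 483, 632 and 569 CPM, and Atp5sl the lowest at 20.1, 15.5, 21.8 and 34.8 CPM. The values are 3′ tags with no correction for length or for capture, and they place these genes within their own libraries only.

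Correlations between members ranged widely. Over the 20 sums of 5 classes and 4 libraries, the 58 members with at least 5 counts in every sum had a median pairwise correlation of log2 CPM of 0.26, from -0.76 to 0.94, and 30.7% of pairs were below 0. The median correlation of a member with the sum of all other members was 0.45. No set of other genes was taken for comparison. These sums share libraries, depth and scaling, so the correlations are descriptive. Members were then compared between cell types by edgeR's quasi-likelihood test with the library as a block, adjusted by Benjamini-Hochberg over all genes tested and called at an adjusted p under 0.05. In the fit over the 5 classes 75 members passed the filter on low counts, and Cox6a2, Cox6b2, Cox7a1, Cox7b2, Cox8b, Cox8c and Ndufs8 did not.

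Between glucagon-gated and insulin-gated cells, complex II stood out through Sdhc. Sdhc encodes a membrane anchor of succinate dehydrogenase. It was counted at 502, 1958, 389 and 261 CPM in the glucagon gate and at 140, 97.4, 138 and 150 CPM in the insulin gate. Every glucagon-gated library was above every insulin-gated library, and the library labelled mutant A was far above the others. The log2 difference was 2.19 ± 0.35 (SE, adjusted p = 4.5e-05), a 4.57-fold higher level, and it was 1.39 without that library (adjusted p = 6.1e-06). In somatostatin-gated, endothelial and mesenchymal cells Sdhc stayed between 92.8 and 301 CPM. No glucagon-gated cell held more than 3.21% of the Sdhc counts of its library. The 3′ end of Sdhc lies near Cfap126 on the other strand, and Cfap126 stood at 30.6, 14.4, 14.7 and 18.2 CPM in the glucagon gate.

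The other calls between these gates were mostly lower in glucagon-gated cells. In all 3 members were higher and 9 lower of 75, against 9.98% of 10060 genes called higher and 11% called lower, so the share of members called was below the 21% of all genes in either direction. Complex I held 2 of the higher and 6 of the lower calls, complex III 2 lower, complex IV 1 lower and complex V none. Ndufs4, an accessory subunit whose loss causes Leigh syndrome, was at 89.7, 85.2, 57.8 and 38.5 CPM in the glucagon gate and at 55.2, 39.3, 25.5 and 31.2 in the insulin gate (log2 difference 0.77 ± 0.19, adjusted p = 0.0046). Within each library it was higher in the glucagon gate, although the ranges of the gates overlapped. Ndufa6, an accessory subunit of the matrix arm, was higher by 0.56 ± 0.18 (log2, adjusted p = 0.031), with every glucagon-gated library above every insulin-gated library.

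Uqcr10, a small subunit of complex III, was at 75.5, 68.1, 31.8 and 24.0 CPM in the glucagon gate and at 145, 103, 54.7 and 69.8 CPM in the insulin gate (log2 difference -1.03 ± 0.17, adjusted p = 9.6e-05). Ndufa4, placed with complex I by its symbol but now known as a subunit of complex IV, was lower by 0.92 ± 0.30 on the log2 scale, Ndufc2 by 0.85 ± 0.19 and the flavoprotein subunit Ndufv3 by 0.68 ± 0.17 (adjusted p = 0.032, 0.0025 and 0.0043). These 3 were lower within all 4 libraries. Cox7a2l, Ndufa1, Ndufb8 and Uqcrq were also called lower. Of 18 citric acid cycle genes 4 were lower and 0 higher, and of 12 mitochondrially encoded genes 2 and 0. Of all genes 11% were called lower and 9.98% higher. Over all 75 members the median log2 difference was -0.13, against 0.06 over all genes. The count of 12 fell to 7 without WT A, to 5 without mutant B and to 2 without the library block.

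Somatostatin-gated cells differed from insulin-gated cells in few members. Higher were 3 and lower 1 of 75, all of complex I, where 5.44% and 7.01% of all genes were called in these directions and 12.4% in either. Ndufs6, an accessory subunit, was at 115, 92.8, 58.8 and 60.0 CPM in the somatostatin gate and at 60.5, 49.5, 28 and 39.5 in the insulin gate (log2 difference 0.75 ± 0.21, adjusted p = 0.019). Ndufa13 rose by 0.79 ± 0.25 and Ndufs4 by 0.75 ± 0.24 (adjusted p = 0.037 and 0.038), each within every library. An exon of Yjefn3 lies near the 3′ end of Ndufa13 on the same strand, so reads of Ndufa13 could be split. The sums hold only 28 to 88 cells. The mitochondrially encoded partners moved otherwise: all 12 tested were lower within every library, and 11 of them were called. Their median log2 difference was -0.89, while the median of the nuclear members was -0.09 and that of all genes -0.06. For mt-Nd5, a core subunit of complex I, the difference was -0.94 ± 0.15 (adjusted p = 0.00011). The nuclear median was 0.03 with total counts in place of TMM factors, so its sign depends on scaling. The count of 4 calls became 1 without WT A and 1 without WT B, 2 without mutant B, 2 with gates at 2 times the share, 2 at 2000 or more counts per cell and 0 without the library block, and without a filter on low counts it became 0 higher and 16 lower.

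**Figure D2:**
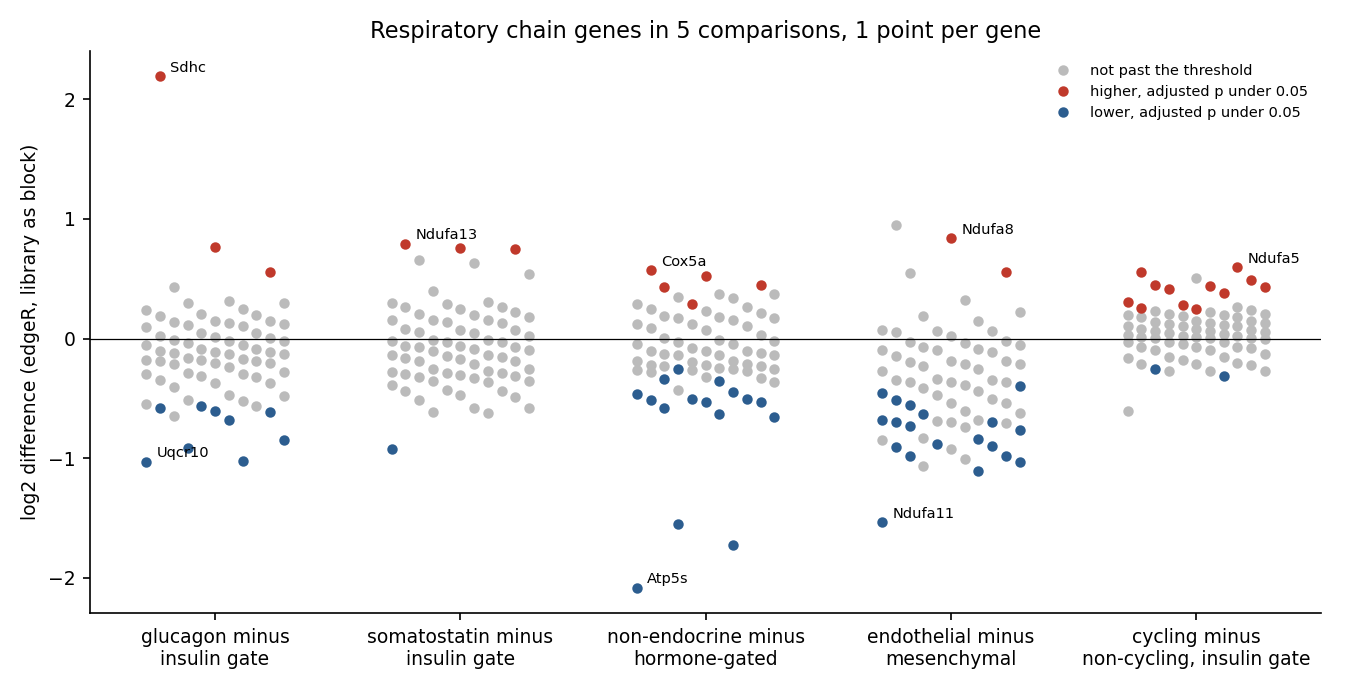
Log2 difference of each tested member (1 point per gene, spread sideways for display) in 5 comparisons, from edgeR with the library as a block. Red and blue points are called higher and lower at an adjusted p under 0.05 and the named genes are among the most extreme calls, such as Sdhc at 2.19 in glucagon-gated cells and Atp5s at -2.08 in non-endocrine cells.

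Non-endocrine cells, taken as the mean of endothelial and mesenchymal cells, were compared with the mean of the 3 hormone gates. Of 75 members 5 were higher and 16 lower, while 30.3% and 30% of all genes were called in these directions and 60.3% in either, so fewer members than genes in general separated the 2 kinds of cells. Complex I held 8 of the lower calls, complex V 4, complex IV 2 and complexes II and III 1 each. Ndufa1, a small membrane subunit needed to assemble complex I and encoded on the X chromosome, was at 88.5, 44.1, 31.9 and 35.7 CPM in endothelial and at 76.4, 57.0, 47.5 and 37.8 CPM in mesenchymal cells. In the insulin gate it was at 275, 159, 123 and 156 CPM, in the glucagon gate at 231, 169, 68.6 and 68.9 and in the somatostatin gate at 348, 247, 170 and 133. Within each library the hormone gates were above both non-endocrine classes (log2 difference -1.73 ± 0.14, adjusted p = 4.1e-10).

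Ndufv3 followed the same order, at 34.0, 24.5, 15.9 and 17.9 CPM in endothelial and 40.9, 46.6, 31.1 and 28.1 in mesenchymal cells against 136, 90.5, 66.9 and 96.5 in the insulin gate (log2 difference -1.55 ± 0.15, adjusted p = 9.3e-09). Atp5s, a coupling factor gene that is no subunit, fell by 2.08 ± 0.31 on the log2 scale, on only 0 to 20 counts per non-endocrine sum. Ndufs6 and Atp5g1, the latter encoding subunit c of the ATP synthase rotor, fell by 0.66 ± 0.16 and 0.63 ± 0.16 (adjusted p = 0.00098 and 0.0015). Higher in non-endocrine cells were Cox5a, a subunit of complex IV, by 0.57 ± 0.15, Sdhb and Sdha, the iron-sulfur and flavoprotein subunits of complex II, by 0.45 ± 0.19 and 0.29 ± 0.11, and Atp5o, the stalk subunit of complex V, by 0.43 ± 0.14 (adjusted p = 0.0023, 0.048, 0.034 and 0.012). These 4 were higher within all 4 libraries. Sdhb and Sdha lost their call when hormone and mitochondrially encoded genes were removed before the fit (adjusted p = 0.096 and 0.13). A near-identical copy of Atp5g1 is also counted. Cox5a has a near-identical match in Gm26631, which has an exon near the 3′ end of Cox5a on the other strand. The 3′ end of Atp5o overlaps Donson, so reads of these 3 could be split. Ndufa10, also higher, had this sign in 3 of 4 libraries. The median log2 difference was -0.13 against -0.01 over all genes, and the count of 21 became 12 without the library block.

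**Figure D3:**
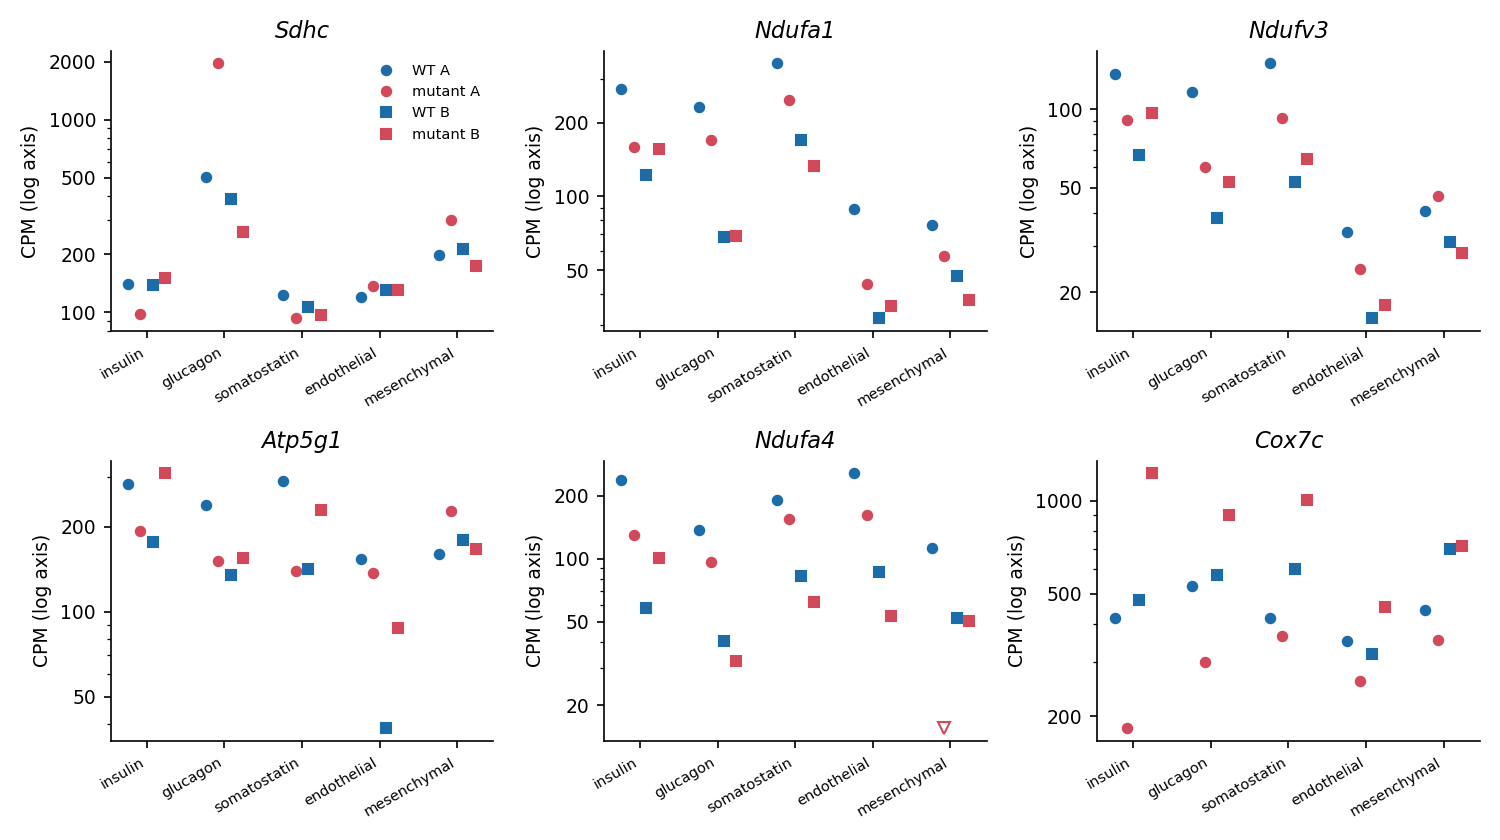
CPM (log axis) of 6 members in 5 classes, with circles for number A, squares for number B, blue for WT and red for mutant. Sdhc is high in the glucagon gate, Ndufa1 and Ndufv3 are low in endothelial and mesenchymal cells, and the open triangle marks the CPM of 3 counts (15.5) where Ndufa4 had 0 counts.

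Genes around the chain were followed in 6 further lists, in the same comparison of non-endocrine with hormone-gated cells. There 30.3% of all genes were called higher and 30% lower, 60.3% in either direction. Assembly factors (41.7% called), carriers and porins (38.5%) and regulators of mitochondrial gene expression (25%) were below that share. Citric acid cycle genes (66.7%), mitochondrially encoded genes (58.3%) and the list of other subunits and isoforms (66.7%) were near it. Of 36 tested assembly factors 14 were lower and 1 higher, with a median of -0.26. Cox17, the copper chaperone of complex IV, fell by 1.49 ± 0.14 (adjusted p = 5.1e-09) and Lrpprc, which stabilises mitochondrial messenger RNAs, by 1.71 ± 0.17 (adjusted p = 1.3e-08). Glucagon-gated cells held Lrpprc at 289, 238, 337 and 369 CPM. Of 18 citric acid cycle and pyruvate dehydrogenase genes 9 were lower and 3 higher: Suclg1, a subunit of succinyl-CoA ligase, fell by 0.74 ± 0.12 (adjusted p = 1.6e-05) and Pdha1, a subunit of pyruvate dehydrogenase, rose by 0.62 ± 0.14 (adjusted p = 0.00061). Among 13 carriers and porins 3 were lower and 2 higher, and the uncoupling protein gene Ucp2, a negative regulator of insulin secretion, was at 560, 258, 121 and 229 CPM in the insulin gate and at 53.3, 25.9, 8.18 and 24.9 CPM in mesenchymal cells (log2 difference of the comparison -2.41 ± 0.15, adjusted p = 4.7e-12). The citrate carrier Slc25a1 fell by 1.58 ± 0.15 (adjusted p = 2.4e-09).

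Among mitochondrially encoded genes 7 of 12 were called lower in non-endocrine cells, against 30% of all genes, but only 2 were lower within all 4 libraries. The fall was 0.57 ± 0.10 for mt-Nd5 and 0.46 ± 0.13 for mt-Nd2 (adjusted p = 2.7e-05 and 0.0038). The classes behind these means differed. The mitochondrially encoded messenger RNAs averaged 6.09, 4.66 and 3.60% of counts in the insulin, glucagon and somatostatin gates. In mesenchymal cells they averaged 4.69% and in endothelial cells 3.22%. Of the regulators of mitochondrial gene expression 2 of 8 tested were higher and 0 lower. Gabpa, the DNA-binding subunit of nuclear respiratory factor 2, was at 116, 147, 111 and 87.3 CPM in endothelial and 58.7, 72.6, 76.9 and 85.2 CPM in mesenchymal cells against 24.0, 15.2, 29.6 and 39.3 CPM in the insulin gate (log2 difference 1.65 ± 0.18, adjusted p = 4.4e-08). Gabpb2, its partner, was higher by 0.60 ± 0.24 (adjusted p = 0.036), in 3 of 4 libraries. Subunit genes outside the rule and isoforms were 3 higher and 3 lower of 9, and among the lower was Minos1, a cristae protein, by -0.71 ± 0.13 (log2 difference, adjusted p = 5.1e-05).

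Between endothelial and mesenchymal cells most calls were lower in endothelial cells. In endothelial cells 19 of 75 members were lower and 2 higher, against 13% and 12.7% of all genes (25.7% in either direction), and the median member was at -0.39 (log2) where the median of all genes was at -0.08. Of 75 members 62 had a negative difference. Complex V had 8 of 17 members lower, among them the subunit c genes Atp5g1 (-0.98 ± 0.26, adjusted p = 0.0056) and Atp5g3. In complex I 7 were lower and 1 higher, in complex IV 3 and 1, in complex III 1 lower and in complex II none. Ndufa11, a membrane subunit of complex I, was at 37.4, 29.4, 9.10 and 13.9 CPM in endothelial and at 99.5, 119, 34.4 and 23.3 CPM in mesenchymal cells (-1.53 ± 0.26, adjusted p = 6.5e-05). It was lower in endothelial cells within every library. Ndufs6 fell by 1.11 ± 0.27, Ndufa13 by 1.03 ± 0.29 and Ndufb5 by 0.98 ± 0.30 (adjusted p = 0.0029, 0.0090 and 0.018).

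Higher in endothelial cells were Ndufa8, a subunit of the intermembrane side of complex I, at 167, 118, 77.4 and 119 CPM against 94.2, 57.0, 49.1 and 58.7 (log2 difference 0.84 ± 0.23, adjusted p = 0.0082), and Cox7a2l, a factor that joins complexes III and IV into supercomplexes, by 0.55 ± 0.18 (adjusted p = 0.030). Both were higher within all 4 libraries. The count of 21 became 10 without WT A, 7 without WT B and 3 without the library block, and the median stayed between -0.48 and -0.36 under the alternatives run. These sums rest on 39 to 461 cells, and the library labelled mutant A had 47 mesenchymal cells.

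Ndufa4 was not counted at all in the mesenchymal cells of mutant A. Its levels in mesenchymal cells were 112, 0, 52.4 and 50.6 CPM, and a count of 0 among 192967 allows up to 15.5 CPM. In endothelial cells of the same library it was at 162 CPM. Ndufa4l2, which is no member and encodes a related protein induced under low oxygen and found in pericytes, was at 274, 897, 203 and 98.9 CPM in mesenchymal cells, where mutant A was highest, and at 0 to 19.8 CPM in the other 4 classes. Cox4i2, a form of subunit 4 of complex IV found in lung and vessels, was at 10.7, 72.6, 0 and 0 CPM in mesenchymal cells. The pericyte marker Rgs5 was also highest in mutant A there, at 2373, 7887, 3812 and 2394 CPM, and the fibroblast marker Pdgfra lowest, at 160, 98.5, 268 and 226 CPM, and the part of this makeup in the levels was not tested. Ndufa4l2 was 25.5-fold higher in non-endocrine than in hormone-gated cells (log2 difference 4.67 ± 0.56, adjusted p = 1.7e-07).

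Promoters of 69 members were matched by symbol or gene ID to RefSeq sequences of GRCm38.p6. The motif GCATGCGC, the core site of nuclear respiratory factor 1, was found on either strand in 10 of them (14.5%), and in 3.05% of 27025 genes with a promoter. The ETS motif CCGGAAG, bound by nuclear respiratory factor 2 among many others, was found in 16 (23.2%) and in 9.93% of all. The first 8 letters of the run gcgcatgcgc and its last 8 are both matches on opposite strands, so a palindrome counts as 2 overlapping matches. Shown are Ndufa11 and Ndufa8, which were called in opposite directions between endothelial and mesenchymal cells, Sdhb, higher in non-endocrine cells, and Cox6a1, which differed between the title numbers in all classes. Capitals mark the matches, and sequences run 5′ to 3′ on the strand of the gene.
Ndufa11 (chr17:56717512-56717811, plus strand): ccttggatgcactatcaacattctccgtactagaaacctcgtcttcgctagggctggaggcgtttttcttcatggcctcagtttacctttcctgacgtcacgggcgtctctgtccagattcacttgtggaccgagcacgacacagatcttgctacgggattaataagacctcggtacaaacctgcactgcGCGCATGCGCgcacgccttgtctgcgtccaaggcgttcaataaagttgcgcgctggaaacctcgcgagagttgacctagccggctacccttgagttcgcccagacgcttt
Ndufa8 (chr2:36049289-36049588, minus strand): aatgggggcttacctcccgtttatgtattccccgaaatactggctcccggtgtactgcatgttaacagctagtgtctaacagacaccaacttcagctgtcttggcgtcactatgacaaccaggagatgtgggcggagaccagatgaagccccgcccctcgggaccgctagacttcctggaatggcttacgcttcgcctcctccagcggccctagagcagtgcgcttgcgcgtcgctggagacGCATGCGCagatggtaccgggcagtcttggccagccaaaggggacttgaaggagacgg
Sdhb (chr4:140961021-140961320, plus strand): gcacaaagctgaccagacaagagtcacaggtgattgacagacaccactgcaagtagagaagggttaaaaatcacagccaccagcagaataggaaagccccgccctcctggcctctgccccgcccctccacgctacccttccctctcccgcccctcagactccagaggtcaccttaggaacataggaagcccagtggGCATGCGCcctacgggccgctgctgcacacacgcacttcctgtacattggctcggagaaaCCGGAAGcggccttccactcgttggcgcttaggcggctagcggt
Cox6a1 (chr5:115348909-115349208, minus strand): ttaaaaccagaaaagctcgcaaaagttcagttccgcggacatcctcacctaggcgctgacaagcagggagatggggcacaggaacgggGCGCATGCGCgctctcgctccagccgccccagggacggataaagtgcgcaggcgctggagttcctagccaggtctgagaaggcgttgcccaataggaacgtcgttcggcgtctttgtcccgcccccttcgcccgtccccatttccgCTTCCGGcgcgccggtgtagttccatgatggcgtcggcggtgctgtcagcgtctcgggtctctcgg
Ndufa11 carries the palindrome alone and Ndufa8 1 match to GCATGCGC, Sdhb carries 1 match to each motif, and Cox6a1 carries the palindrome and 1 ETS match on the opposite strand. A match describes the letters only.

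Members were called between cycling and other insulin-gated cells about as often as genes in general. Most calls were higher in cycling cells, a direction that depended on the filter on low counts. Cells with at least 2000 counts were called cycling when, thinned to 2000 counts, they held at least 2 counts over 8 cycle markers, which gave 102, 80, 108 and 128 cells (18, 14.4, 15.4 and 17.1%). In all 12 of 76 members were higher and 2 lower (18.4% called), against 9.84% and 8.19% of 12475 genes (18% in either direction). The median was 0.06 against -0.03 for all genes. The higher calls were 5 in complex V, 4 in complex I and 3 in complex IV. Atp5g3 was at 391, 234, 378 and 921 CPM in cycling and at 291, 196, 268 and 527 CPM in other insulin-gated cells (log2 difference 0.49 ± 0.08, adjusted p = 5.2e-05). Cycling cells were higher within each library, while the spread between libraries was larger than this difference.

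Ndufa5, an accessory subunit of complex I, rose by 0.60 ± 0.14, Ndufb6 by 0.55 ± 0.13 and Ndufc2 by 0.45 ± 0.09 (adjusted p = 0.0021, 0.0034 and 0.00050). Atp5j, coupling factor 6 of the ATP synthase stalk, rose by 0.43 ± 0.09 and Atp5o by 0.44 ± 0.13 (adjusted p = 0.00084 and 0.013). Cox7a2l, lower in cycling cells, fell by 0.25 ± 0.07 (adjusted p = 0.0076). Each of these 6 had its sign within all 4 libraries. Of 13 mitochondrially encoded genes 2 were lower and none higher, against 8.19% and 9.84% of all genes. The direction of the count depended on the filter: without a filter on low counts 0 members were higher and 13 lower, and the median of all genes of the comparison fell from -0.03 to -0.27. The count of 14 became 6 with DESeq2, 7 without WT A, 8 without WT B and 0 without the library block.

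In the glucagon gate WT A held only 9 cycling cells, beside 13, 44 and 57 in the other libraries, so values are given with no test. The summed share of the 82 genes was 1.45, 1.29, 1.01 and 1.03% in cycling and 1.34, 1.21, 1.00 and 0.985% in other glucagon-gated cells. It was higher in cycling cells of all 4 libraries, by little in WT B, where it was lower without hormone and mitochondrially encoded genes in the total (1.31 against 1.35%).

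Tissue forms of complex IV subunits had few counts in the insulin gate. Cox6a1, the common form of subunit 6a of complex IV, was at 597, 357, 252 and 314 CPM in the insulin gate, and Cox6a2, the heart and muscle form, at 2.66, 2.10, 0.584 and 3.37 CPM. Cox6a2 had 21, 13, 3 and 18 counts in the insulin gate and none in glucagon-gated, somatostatin-gated, endothelial, mesenchymal or ductal cells, where the limit set by 3 counts reached 23.2 CPM among the first 4 of these classes. Its counts were too few for the class fit. Cox6b2, a testis form, was at 1.14, 0.968, 1.75 and 2.62 CPM in the insulin gate but at 34.4, 87.7, 18.3 and 21.2 CPM in ductal cells, on 6, 10, 7 and 16 counts. In mesenchymal cells Cox6b2 was at 24.9, 10.4, 6.55 and 12.1 CPM, while Cox6b1 was at 277, 280, 303 and 247 CPM. Cox7a1, the muscle form, had at most 10 counts in any of these sums, beside 281 to 1253 counts of Cox7a2 in the insulin gate.

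Cox7b2, Cox8b and Cox8c also stayed at or under 4 counts per sum. Their common partner Cox7b was at 105, 72.4, 74.9 and 97.6 CPM in the insulin gate. For Cox8a the levels there were 1219, 682, 890 and 1453 CPM. All 3 genes for the identical mature subunit c were counted: Atp5g2 held 453, 360, 560 and 697 CPM in the insulin gate, Atp5g3 309, 201, 287 and 604 CPM and Atp5g1 283, 193, 177 and 309 CPM. In mesenchymal cells Atp5g3 was at 492, 347, 589 and 543 CPM and Atp5g2 at 508, 415, 579 and 530 CPM. Cox4i1, the common form of subunit 4, was at 361, 228, 359 and 469 CPM in the insulin gate.

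No member was called between libraries labelled mutant and WT. In the insulin gate 0 of 78 members passed an adjusted p of 0.05 by edgeR, as did 0% of 16214 genes, and 0 members and 36 genes (0.222%) had an unadjusted p under 0.05. In the glucagon gate 0 of 76 members were called, with 0% of 11074 genes, and 0 members and 18 genes (0.163%) had an unadjusted p under 0.05. DESeq2 called 0 members in either gate. With 2 libraries per label and this spread the test had little reach: of genes changed 4-fold in simulated counts it recovered 0% in the insulin gate and 8% in the glucagon gate. The medians of the members were -0.07 and -0.17 (log2) against -0.01 and 0.00 over all genes.

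Cox7c, a small subunit of complex IV, had the smallest unadjusted p among members of the insulin gate. It was at 417, 183, 475 and 1229 CPM, lower in mutant A than in WT A and higher in mutant B than in WT B, so that its log2 difference of 0.76 ± 0.80 (adjusted p = 1) was smaller than its error. Mutant A was lowest and mutant B highest for Cox7c in each of the 5 classes, with 300 and 900 CPM in the glucagon gate and 352 and 712 CPM in mesenchymal cells. Cox6a2, Atp5s and Atp5g3 came next, with 0.70 ± 0.88, 0.56 ± 0.73 and 0.51 ± 0.68. In the glucagon gate the first was Sdhc, at 1.26 ± 0.72 (adjusted p = 1), which rests on mutant A and became -0.66 without it. Atp5b, the catalytic beta subunit of the ATP synthase, was at 319, 166, 149 and 118 CPM, lower in the library labelled mutant of each number (-0.70 ± 0.54), and Cyc1 and Ndufs1 had -0.77 ± 0.60 and -0.70 ± 0.55.

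Within each title number the libraries were also set against each other, as a description. Relative to the median gene, 57 of 76 members were lower in mutant A than in WT A (median -0.30) and 58 were higher in mutant B than in WT B (median 0.43). Of these, 51 (of all 10747 genes 37.4%) were down in A and up in B, 12 (37.4%) did the opposite, 7 (12.6%) were up in each number and 6 (12.6%) down in each. Cox5a had -1.17 in A and 1.01 in B, and Ndufb6 had -1.05 and 1.28. In the glucagon gate 42 of 70 members were lower in mutant A (median -0.13) and 54 lower in mutant B (median -0.24). Lower in both numbers were 27 (of all 5389 genes 15.8%), and 1 was higher in both (15.8%). As many, 27 (34.2%), were up in A and down in B, and 15 (34.2%) were down in A and up in B. The difference between the gates was not tested.

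**Figure D4:**
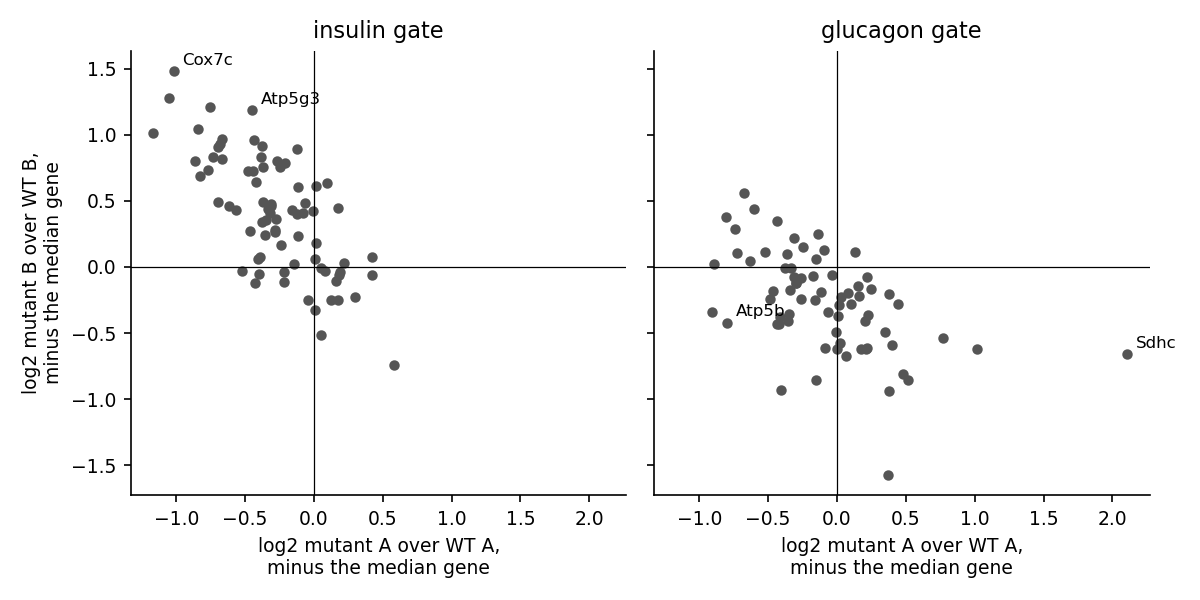
Log2 ratio of mutant to WT within number A (x axis) and within number B (y axis), each minus the median gene, for members with at least 20 counts in every library. In the insulin gate 51 of 76 members lie in the upper left, lower in mutant A and higher in mutant B. In the glucagon gate 27 of 70 lie in the lower left, 27 in the lower right and 15 in the upper left, with Sdhc far to the right.

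Members were also compared between the title numbers, A and B. In the insulin gate 32 of 77 members with at least 5 counts per library had both A libraries above both B libraries and 16 the reverse, where 19.5% and 24.3% of all genes did so. For the glucagon gate the counts were 48 and 12 of 77 (all genes 32.4% and 16.1%), in the somatostatin gate 25 and 12 of 60 (21.8% and 25.1%), in endothelial cells 36 and 8 of 69 (31.5% and 24.2%) and in mesenchymal cells 43 and 10 of 71 (34.7% and 20.9%). As all classes come from the same 4 libraries, these are not separate observations. In all 5 classes 16 of 58 members were higher in both A libraries, against 8.22% of all genes, and 4 were higher in both B libraries, against 6.93%.

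The 16 members higher in A were Ndufa1, Ndufb2, Ndufb8, Ndufs4 and Ndufs6 of complex I, Uqcr10 and Uqcr11 of complex III, Cox5b, Cox6a1 and Cox7a2 of complex IV and Atp5b, Atp5d, Atp5e, Atp5j2, Atp5k and Atp5l of complex V. Cox5b, a subunit of complex IV, was at 98.0, 80.5, 28.4 and 30.9 CPM in the insulin gate and at 116, 147, 15.9 and 29.8 CPM in endothelial cells. The 4 members higher in B were Ndufb3, Uqcrfs1, Uqcrh and Atp5g2. Uqcrfs1, the Rieske iron-sulfur protein, was at 136, 91.9, 215 and 192 CPM in the insulin gate and at 98.7, 68.5, 191 and 161 CPM in endothelial cells. A near-identical copy of Cox5b, Ndufb2, Ndufb8 and Atp5l is also counted in the files. Median counts per cell and the share of mitochondrially encoded counts also differed between the numbers, with 9997 and 7605 against 5306 and 4448.5 counts, and a median of 4.68 and 3.25% against 5.89 and 7.06%, and their part in the split was not tested.

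**Figure D5:**
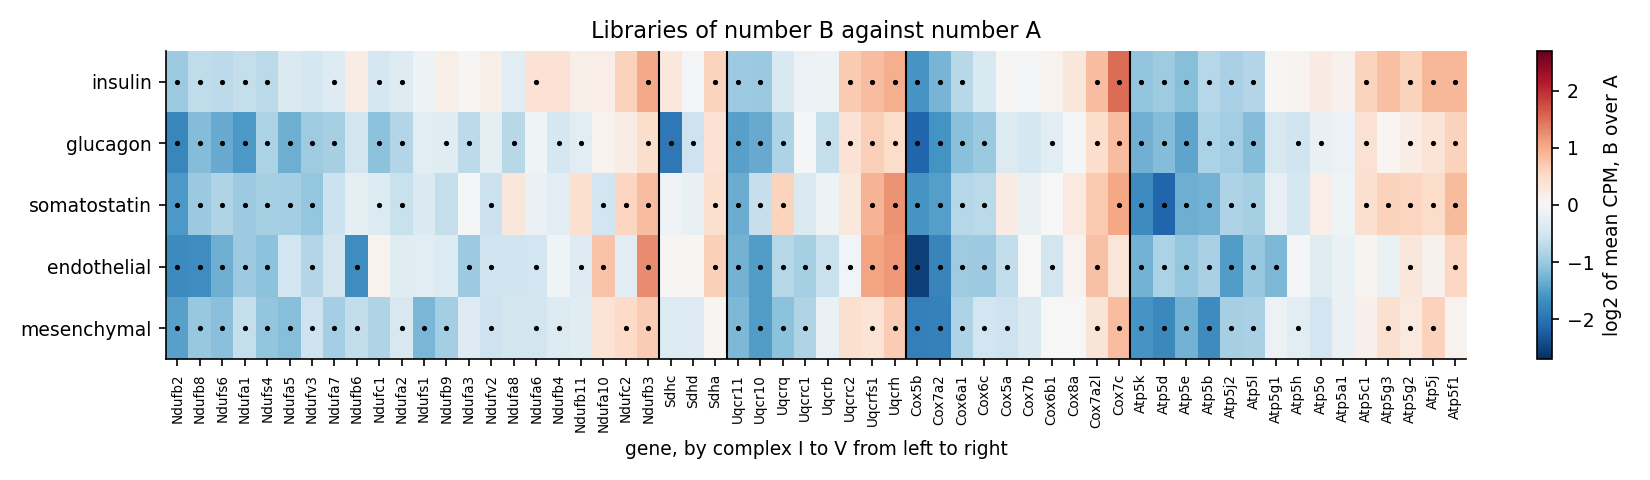
Log2 ratio of mean CPM in number B over number A for 58 members with at least 5 counts in every sum, by class (rows) and gene (columns, complexes I to V from left to right, divided by black lines); a dot marks genes whose 2 libraries of a number both lie outside those of the other. Blue columns such as Cox5b are higher in number A in every class and red columns such as Uqcrh higher in number B.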

How the data were processed

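The deposited tables hold counts of 3′ tags per gene and cell barcode, made by the authors; GRCm38 and GRCh38 are named in the submitters' processing notes, while the counting tool, annotation and strandedness (not given in the sources used here) remain unknown. Members and gene lists were chosen with earlier results of these data known.

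Barcodes needed 500 counts and 250 genes, with no more than 25% of counts from mitochondrial DNA, and 40 doublets called by Scrublet (scanpy 1.11.5) were removed. Hormone gates were set at 2% of counts (1% for Ppy), and cells of other types were taken by at least 3 markers. Counts were summed per library and class (at least 20 cells per library) and fitted with edgeR 4.0.16 in R 4.3.3 (quasi-likelihood, TMM factors, filter on low counts), with the library as a block between classes and no block between genotype labels. P-values were adjusted by Benjamini-Hochberg over all genes tested. The fit was tested on simulated counts. DESeq2 1.42.0, other scalings, gates and filters, and leaving out each library were alternatives. Named genes are, per class comparison, up to 5 calls per direction of largest difference with the same sign in all 4 libraries; per genotype comparison, the 4 smallest p; the highest and lowest gene of each complex; tissue forms; and 2 genes per list. Other genes named were chosen after their values were seen. Near-identical copies were sought with BLAST 2.17.0. The libraries are stated to be biological replicates; intervals set by 3 counts cover counting error only. The values of 1 gene are not reported here.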

Additional observations from a re-analysis of the deposited data

Results flagged for a closer look

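The summed share of the 82 genes in the insulin gate moved in opposite directions within the 2 title numbers. The log2 ratio of the library labelled mutant over WT was -0.56 in number A and 0.44 in number B, and -0.33 and 0.42 without hormone and mitochondrially encoded genes in the total. With 1 library per label in each number, the difference was not tested.

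By Dixon's criterion, which chance meets in about 1 of 20 groups, none of 30 summed shares held a library apart from the others of its class. Among 201 tests of 46 single members with at least 20 counts over the 4 libraries of a class, 6 did. Sdhc stood at 1958 CPM in the glucagon gate of mutant A, above 261 to 502 CPM in the others. Cox6b1 was high at 341 CPM and Ndufb6 at 50.0 CPM in the glucagon gate of WT A. Ndufa6 was high at 197 CPM in endothelial cells of WT A. In the somatostatin gate Ndufb5 was low at 11.8 CPM in WT B, on 2 counts, and Atp5sl at 7.73 CPM in mutant A, on 1 count.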

How the results depend on the processing

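The counts of called members were the results that moved most. Without the replicate block (library term left out) they became 2 (glucagon against insulin gate), 0 (somatostatin), 12 (non-endocrine), 3 (endothelial against mesenchymal) and 0 (cycling). The somatostatin count of 4 became 16 without a filter on low counts, 2 with gates at 2 times the share and 2 at 2000 or more counts per cell, and the cycling count of 14 became 6 with DESeq2. Without the filter the cycling calls were 0 higher and 13 lower; the median of all genes then moved to -0.27, and to -0.45 in the somatostatin comparison. Leaving out each library in turn gave 5 to 11, 1 to 3, 15 to 22, 7 to 16 and 7 to 14 calls in these 5 comparisons, and 0 in both genotype comparisons. It gave summed shares of 1.07 to 1.24, 1.07 to 1.19, 1.08 to 1.18, 0.937 to 1.01 and 1.14 to 1.25% in insulin-gated, glucagon-gated, somatostatin-gated, endothelial and mesenchymal cells. Without hormone and mitochondrially encoded genes in the total, the shares were 1.51, 1.45 and 1.47% in the hormone gates. Genotype differences in the insulin gate changed sign without mutant B for Cox7c (-1.31, and up to 1.57 without another library), Atp5s (-1.39 to 1.35) and Atp5g3 (-0.60 to 1.12) and without WT B for Cox6a2 (-0.031 to 2.33). In the glucagon gate Sdhc changed to -0.66 without mutant A and reached 2.02 without mutant B. The cause was not tested. A replicate block by title number called 0 and 0 members between labels. Deviations of libraries with the same number correlated at 0.03 and 0.07 in the insulin and glucagon gates. With so few libraries this cannot decide whether the numbers pair libraries. They were not taken to do so, as no source used here says what they stand for. For named genes, 483 of the values under alternatives that keep all libraries kept direction and side of the threshold and 67 lost the call; with a library left out 170 kept both, 49 lost the call and 5 changed sign. The cycling alternatives in the glucagon gate were not run, as WT A held 9 cycling cells. Depth limits the somatostatin, endothelial and mesenchymal sums, which rest on 28 to 461 cells.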
